A study of Myotis pilosus with 4 samples.

Results

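The small RNA tags of 27 to 30 nt are the longest sequences in these libraries of the bat Myotis ricketti (given as Myotis pilosus in the sample labels). A tag is one distinct clean sequence, with the number of times it was read. The tags were taken from all 4 libraries by their length, and those that held bases 2 to 17 of any mature miRNA listed by the study were left out. This left 135873 tags, called unlisted tags here, of the 2315110 tags in the series, and 530627 of the 45147213 clean reads. A further 4471 tags of 27 to 30 nt, with 23618 reads, held such bases and were set aside.

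The study compared small RNAs of hibernating and active adult bats in whole brain and in white intra-abdominal adipose tissue (WAT). Each condition was a single library, prepared from RNA pooled from 3 bats, with brain and WAT taken from the same bats, and the libraries are hibernating brain (HB), active brain (AB), hibernating WAT (HA) and active WAT (AA). The hibernating bats were torpid, with a low body temperature, and were caught in March, whereas the active bats, called aroused in the labels, were caught in October of the year before, so state and season cannot be told apart. RNA of 18 to 30 nt was cut from a gel according to the labels, whereas the study's methods give a higher upper limit, and every tag in the files is 18 to 30 nt long, so longer fragments of the same RNAs were not seen. The clean reads numbered 12159756 (HB), 10007650 (AB), 11542470 (HA) and 11437337 (AA). Since each condition has 1 library, there are no replicates and no p-values. The 95% intervals are exact (Clopper-Pearson) and describe counting error alone, because PCR can copy a molecule many times and bats of a pool cannot be separated.

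Tags longer than a miRNA commonly come from abundant structural RNAs. A transfer RNA (tRNA), which carries an amino acid to the ribosome, can be cut in or near its anticodon loop, for example by angiogenin in stressed cells, and the 5′ piece then starts at the first base of the tRNA and ends in or near the loop. Ribosomal RNA (rRNA) breaks at many positions and leaves overlapping pieces, whereas Y RNAs, short hairpin RNAs bound by the Ro60 protein, leave pieces with fixed ends. PIWI-interacting RNAs (piRNAs), which silence transposons in the germ line, are of similar length and mostly begin with uridine. Since no bat genome was used here, the class of a tag was read from its resemblance to these RNAs in other vertebrates and not from an alignment.

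The most abundant tags of the 5′ starts on which the results turn are printed here, and a 5′ start is the set of tags that share their first 16 nt. Capitals mark these 16 bases, and the sequences are written as DNA, 5′ to 3′. The first set resembles Y RNAs. Y4-3p-a and Y4-3p-b are the 3′ part of a Y4-like RNA and begin 1 base apart, and Y5-3p-a, Y5-3p-b and Y5-5p resemble the 3′ and 5′ parts of Y5 RNA.
Y4-3p-a: CCCCTCACTGCTAAACttgactggctt
Y4-3p-b: CCCTCACTGCTAAACTtgactggcttt
Y5-3p-a: ACAACCACATTTGACTgacttggtatt
Y5-3p-b: CAACCACATTTGACTGacttggtattt
Y5-5p: AGTTGGTCCGACGGTTgtgggttattgt

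The second set resembles the 5′ ends of tRNAs for lysine and glycine. In both tags the bases ggtag, part of the tRNA D arm, follow the capitals directly or after 1 base.
tRNA-Lys: GCCCGGCTAGCTCAGTcggtagagcatgg
tRNA-Gly: GCATTGGTGGTTCAGTggtagaattctc

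The third set resembles 28S and 18S rRNA. The starts 28S-d1, 28S-d2 and 28S-d3 are shown together because they begin a few bases apart along the same stretch of 28S rRNA, and the same holds for 28S-f1 with 28S-f2.
28S-d1: GCGGCGGCGACTCTGGacgcgagccgg
28S-d2: GGCGGCGACTCTGGACgcgagccgggcc
28S-d3: GCGGCGACTCTGGACGcgagccgggcc
28S-f1: AGAGGTGTAGAATAAGtgggaggcccc
28S-f2: GAGAGGTGTAGAATAAgtgggaggccc
28S-c1: GCGCACGTGTTAGGACccgaaagatgg
28S-c2: TGTTAGGACCCGAAAGatggtgaactat
28S-e: GCTAAACCATTCGTAGacgacctgctt
28S-a: GGGGCCCAAGTCCTTCtgatcgaggcc
18S-a1: ATAACGAACGAGACTCtggcatgctaac
18S-b: AGGTCTGTGATGCCCTtagatgtccgg

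Hibernating WAT held far more of the long unlisted tags than any other library. They made up 3.68% of the clean reads in HA (425147 reads, interval 3.67 to 3.69%) against 0.283% in AA (32410 reads, 0.280 to 0.286%). In brain they made up 0.422% in HB (51297 reads, 0.418 to 0.426%) and 0.218% in AB (21773 reads, 0.215 to 0.220%). The share was therefore 13-fold higher in HA than in AA (log2 ratio 3.70, interval 3.68 to 3.72) and 1.94-fold higher in HB than in AB (log2 ratio 0.96, interval 0.93 to 0.98). With each unique tag counted once, as a share of all unique tags, the difference was smaller, 4.42-fold in WAT and 1.55-fold in brain. Both tissues had the higher share in the hibernating library, and AA lay between the brain libraries. In whole tissue, fewer cells of a type and less RNA per cell cannot be told apart.

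The number of reads dropped with each added base in all 4 libraries. Of the unlisted reads of 27 to 30 nt, tags of 27 nt held 69.1% (HB), 74.0% (AB), 52.0% (HA) and 61.0% (AA). Tags of 30 nt held 1.05% (HB), 1.42% (AB), 3.86% (HA) and 2.00% (AA). The WAT libraries thus leaned to longer tags than the brain libraries, and HA most of all. Just outside the length limit, unlisted tags of 26 nt had 57192 reads (HB), 25440 (AB), 335293 (HA) and 35222 (AA), and just inside it, tags of 27 nt had 35466, 16106, 221061 and 19763 reads in the same order. In WAT the log2 ratio of HA to AA, scaled by clean reads, was -0.02 for unlisted tags of 22 nt, 1.30 at 24 nt, 2.68 at 25 nt, 3.47 at 27 nt and 4.65 at 30 nt, so the ratio was larger at each longer of these lengths. In brain the same log2 ratio, HB over AB, was -0.43 at 22 nt, 0.86 at 27 nt, 1.32 at 29 nt and 0.52 at 30 nt. The shortest brain tags were also higher in HB, with 0.76 at 18 nt, 0.62 at 19 nt and 0.41 at 20 nt.

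**Figure D1:**
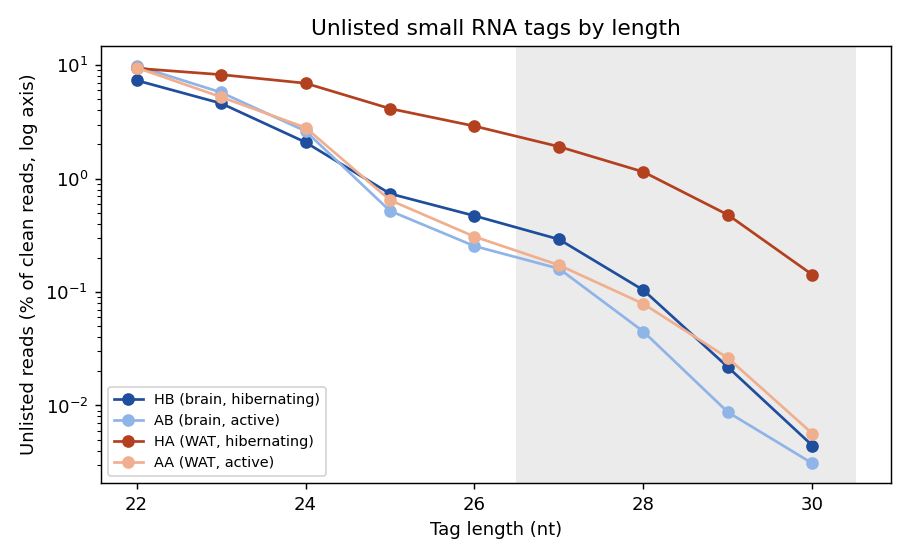
Unlisted reads of each tag length from 22 to 30 nt (x axis) as a percentage of the library's clean reads (y axis, log scale), 1 line per library; the grey band marks 27 to 30 nt. The HA line lies above the other 3 from 23 nt on, and the gap to AA grows toward 30 nt.

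By reads, the first base set the long tags apart from the shorter unlisted tags. Thymine (uridine in the RNA), the usual first base of miRNAs and piRNAs, began 13.03% of the long unlisted reads (HB), 10.9% (AB), 11.1% (HA) and 13.05% (AA). Among unlisted tags of 18 to 26 nt it began 38.0%, 47.5%, 25.5% and 39.4% of the reads in the same order. With each tag counted once the gap was small, 18.3%, 21.7%, 14.2% and 16.9% in the long tags against 20.9%, 23.1%, 16.5% and 21.0% in the shorter ones. Guanine was the commonest first base of the long tags in WAT, with 45.7% of the reads in HA and 41.9% in AA. In brain cytosine was the commonest, with 31.3% (HB) and 47.4% (AB). When each tag was counted once, guanine led in all 4 libraries, with 31.7% of the tags (HB), 28.8% (AB), 38.8% (HA) and 40.2% (AA). The lead of cytosine in brain came with 1 start, Y4-3p-a, described below. The GC content by reads was 53.9% (HB), 52.7% (AB), 55.0% (HA) and 56.0% (AA), against 50.3%, 49.9%, 52.4% and 50.6% in the shorter tags.

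**Figure D2:**
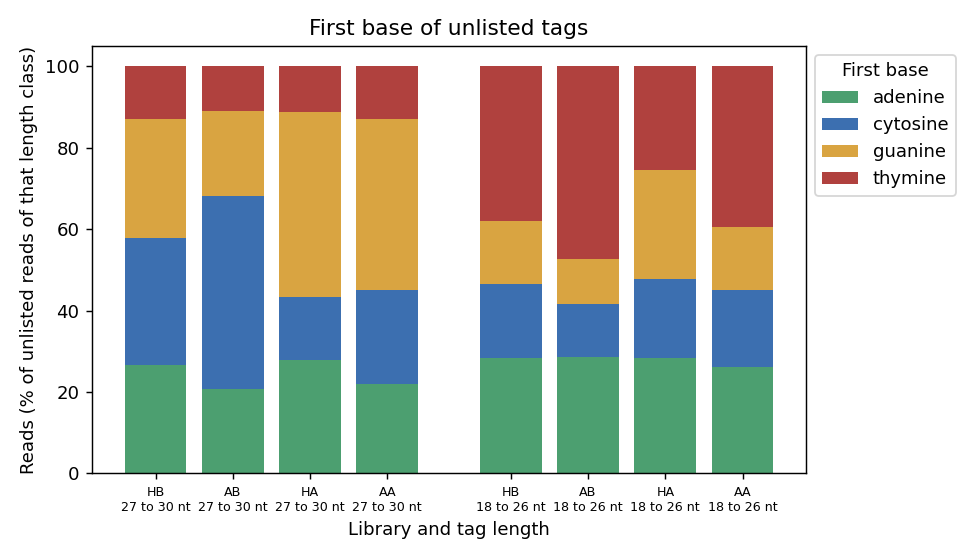
Share of reads (y axis, %) by first base in each library for unlisted tags of 27 to 30 nt (left 4 bars) and of 18 to 26 nt (right 4 bars). Thymine begins 10.9 to 13.05% of the long reads and 25.5 to 47.5% of the short ones.

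Most long tags were read a single time, while a few starts took many reads. Tags with 1 read made up 79.8% of the unlisted long tags (HB), 81.5% (AB), 74.2% (HA) and 78.6% (AA), and held 25.7%, 26.1%, 19.7% and 28.5% of their reads. HA had 112672 of these tags, HB 16531, AA 11769 and AB 6982. At the depth of AB, 21773 reads, the expected number of distinct tags was 10195 in HA, 8591 in AA and 8317 in HB, against the 6982 of AB, so HA remained the most varied and AB the least. The commonest tag took 25.5% of these reads in AB, 10.4% in HB, 4.46% in AA and 1.06% in HA. In AB, 26 starts were enough to hold 50% of the reads, compared with 127 in HB, 122 in AA and 233 in HA. All 4 libraries shared 1176 of the 135873 tags, which held 46.5% of the reads, whereas 127862 were seen in a single library, with 36.5%. These are 0.866% and 94.1% of the long unlisted tags, and over all tags of the series the shares were 2.31% and 88.7%. By reads, the shares over all tags were 89.7% and 6.25%, so reads of the long tags were shared far less.

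To see how the reads divide among RNA classes, tags read at least 2 times in all were linked wherever they shared 18 bases in a row. This gave 13914 linked groups from 32835 tags. The 40 groups with the most reads were named by resemblance of their most abundant tag, a step chosen after the data had been seen. Of these, 27 were named as rRNA (28S, 18S or 5.8S), 3 as Y RNA, 3 as tRNA and 2 as the 5′ arm of miR-30 family miRNAs, and 5 were not named. A group with fewer than 10 reads in any library was left without a name unless it resembled tRNA. The glutamate tRNA group, with 5 reads in HB and 1 in AB, was named in this way. A group that was not named may therefore still resemble a known RNA, and the class counts depend on this rule. The study's list holds 3′ arms of the miR-30 family but not these 5′ arms. The reads outside these 40 groups, left without a class, made up 37.8% (HB), 33.9% (AB), 45.2% (HA) and 41.0% (AA).

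The rRNA-like groups held the most reads of the named classes except in AB. In WAT they took 47.9% of the long unlisted reads of HA (interval 47.8 to 48.1%) and 45.6% of those of AA (45.0 to 46.1%). In brain they took 46.8% of those of HB (46.3 to 47.2%) and 25.4% of those of AB (24.84 to 26.01%). Per 1000000 clean reads, this was 1973 (HB), 553 (AB), 17646 (HA) and 1291 (AA). The rRNA-like reads were thus higher in the hibernating library of both tissues, by a log2 ratio of 1.83 (1.79 to 1.88) in brain and 3.77 (3.75 to 3.80) in WAT. In WAT all 27 groups reached a log2 ratio of at least 1, from 1.98 to 5.35 with a median of 3.76, and 26 of 27 did in brain, where the median was 2.03 and the exception was the group of 28S-e at 0.01. Over all 40 linked groups, whatever their class, 39 reached 1 in WAT, and 29 of the 38 with a ratio did in brain, so the WAT count is not particular to rRNA-like groups. The groups were chosen by reads summed over the libraries, and HA holds 425147 of the 530627 long unlisted reads. This choice favoured groups that are high in HA, so the WAT counts of groups do not stand as a result by themselves. Over the starts of all tags of 18 to 30 nt, 53.1% reached 1 in WAT and 37.2% in brain. By the study's methods, the hibernating pool of each tissue had a lower RNA concentration and a lower ratio of 28S to 18S rRNA than the active pool. Its RNA integrity number was higher. Whether RNA quality or yield bears on the rRNA-like ratios was not tested.

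The Y RNA-like groups were the largest class in AB. They held 39.2% of the long unlisted reads in AB (38.6 to 39.9%), 14.2% in HB (13.9 to 14.5%), 8.56% in AA (8.25 to 8.87%) and 1.04% in HA (1.01 to 1.08%). Scaled by clean reads, their level was lower in HB than in AB, with a log2 ratio of -0.51 (-0.55 to -0.46), and higher in HA than in AA, with a log2 ratio of 0.67 (0.60 to 0.74). The 3 groups differed in direction, as their starts show below.

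The tRNA-like groups resembled the 5′ ends of tRNAs for lysine, glycine and glutamate. Together they held 3.06% of the long unlisted reads in HA (3.01 to 3.11%) and 3.47% in AA (3.27 to 3.68%), but 0.292% in HB (0.248 to 0.343%) and 0.340% in AB (0.267 to 0.426%). Per 1000000 clean reads they had 1126 reads (HA), 98.4 (AA), 12.3 (HB) and 7.39 (AB). The log2 ratio of hibernating to active was 3.52 (3.43 to 3.61) in WAT and 0.74 (0.33 to 1.16) in brain. All 3 groups were higher in HA than in AA, with log2 ratios of 2.70 for lysine, 4.86 for glutamate and 5.57 for glycine, as were 39 of the 40 linked groups. HA held 1558 of the 1617 reads of the glutamate group and 5083 of the 5282 reads of the glycine group. The choice of groups by summed reads thus favoured this direction. It also favoured tRNA-like groups that are high in HA over those of brain, so the lower brain shares do not stand by themselves. Of the brain reads with the tRNA D arm pattern described below, 67.2% (HB) and 70.8% (AB) lay outside the 40 linked groups. In brain the ratio of the lysine group was -0.07 (67 reads in HB and 58 in AB) and that of the glycine group 2.10 (78 and 15), and the glutamate group had 5 and 1 reads, so the brain ratio of the class rests on glycine.

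Relative to the other long tags the picture differs, since the hibernating library of each tissue holds more of them. Scaled by the long unlisted reads of each library, the log2 ratios were 0.88 in brain and 0.07 in WAT for the rRNA-like groups, -1.46 and -3.03 for the Y RNA-like groups, and -0.22 and -0.18 for the tRNA-like groups. The sign thus changed for the Y RNA-like groups in WAT and for the tRNA-like groups in both tissues.

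**Figure D3:**
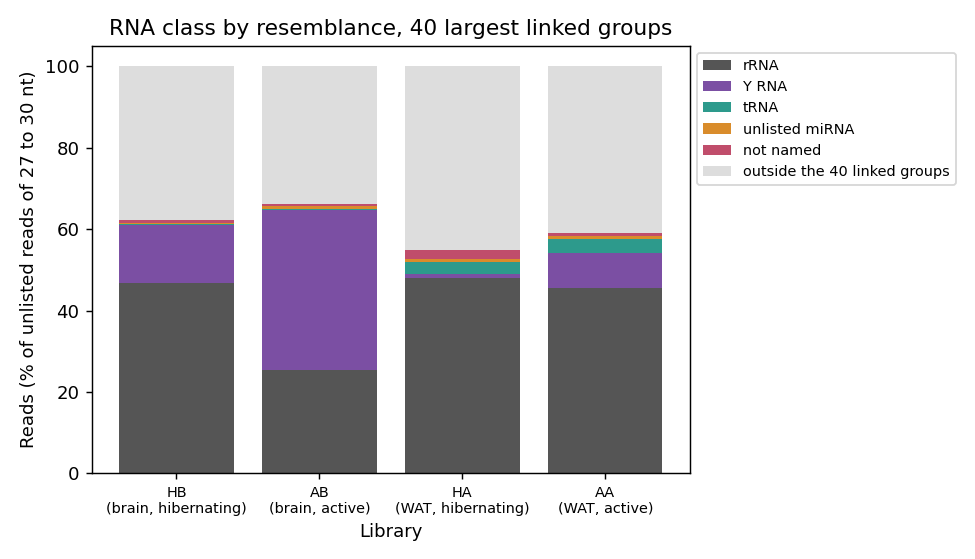
Share of the unlisted reads of 27 to 30 nt (y axis, %) in each library by RNA class for the 40 largest linked groups. Classes were named by resemblance, under the read rule given in the text. The light grey part lies outside these groups. The Y RNA-like share is largest in AB (39.2%), and the tRNA-like share is visible in the WAT libraries (3.06% in HA and 3.47% in AA). The groups were chosen by reads summed over the libraries, which favoured groups that are high in HA.

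Most single starts went the way of the rRNA-like groups. Among the 681 brain starts with 10 or more reads in HB and AB together, 495 (72.7%) reached a log2 ratio of at least 1 and 31 (4.55%) a ratio of -1 or less. The background over the starts of all tags of 18 to 30 nt was 37.2% higher and 14.1% lower. In WAT, 2681 of 2741 starts (97.8%) were higher in HA and 13 (0.474%) lower, against a background of 53.1% higher and 12.8% lower. A library with 0 reads was set at 3 reads for these counts. This concerned 33 of the long starts in AB and 1041 in AA, which passed the minimum through the hibernating library alone and were bound to be counted as higher. Among starts with reads in both libraries of a tissue, 462 of 646 (71.5%) were higher and 29 (4.49%) lower in brain, and 1640 of 1697 (96.6%) higher and 10 (0.589%) lower in WAT. Over the starts of all tags the same shares were 36.2% and 13.6% in brain and 46.6% and 13.5% in WAT. The median log2 ratio of these long starts was 1.72 in brain and 3.45 in WAT, and that of the starts of all tags 0.53 and 0.86. Reads in both libraries do not remove the effect of the minimum. A start with 1 to 3 reads in AA reached 10 only through HA and was bound to be counted as higher. Only 372 long starts had 10 or more reads in AA itself. In brain the same holds for starts with very few reads in AB. A shift of the whole class moves the starts together, and when the libraries were scaled by their long unlisted reads, 278 brain starts were higher and 74 lower, and 321 WAT starts higher and 1096 lower. Under that scaling the sign also changed for 3 of 25 named starts in brain and 13 of 30 in WAT, Y5-3p-a and Y5-3p-b in WAT among them.

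Y4-3p-a was the most abundant start in HB, AB and AA. It had 6349 reads (HB), 6861 (AB), 1096 (HA) and 2221 (AA). It was thus lower in the hibernating library of both tissues, by a log2 ratio of -0.39 (-0.44 to -0.34) in brain and -1.03 (-1.14 to -0.93) in WAT, while most long starts went the other way. It alone made up 31.5% of the long unlisted reads in AB and 12.4% in HB. The start was sharp, with 91.8% of the reads that began within 3 nt of it beginning exactly there. Its tags were also of even length, and 27 nt held 63.9% of its reads of 18 to 30 nt (HB), 62.4% (AB), 61.7% (HA) and 59.9% (AA). The neighbouring lengths differed by tissue, with 26 nt at 23.2% and 28 nt at 9.42% in HB but 9.14% and 26.5% in HA, and the active libraries showed the same tissue pattern, with 21.5% and 11.99% in AB and 9.05% and 26.3% in AA. The neighbour Y4-3p-b, 1 base further in, had 347 reads (HB), 402 (AB), 93 (HA) and 218 (AA), with log2 ratios of -0.49 in brain and -1.24 in WAT.

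The Y5-like 3′ starts went opposite ways in the tissues, and the 5′ start did not. Y5-3p-a had 233 reads (HB), 788 (AB), 1189 (HA) and 117 (AA). It was lower in hibernating brain, with a log2 ratio of -2.04 (-2.26 to -1.83), and higher in hibernating WAT, with 3.33 (3.06 to 3.62). Y5-3p-b, 1 base further in, had 15, 174, 75 and 16 reads in the same order and log2 ratios of -3.82 (-4.69 to -3.06) and 2.22 (1.42 to 3.09). The starts overlap, so they are not independent. The 5′ part, Y5-5p, which was chosen after its values had been seen, had 26 reads (HB), 21 (AB), 1484 (HA) and 34 (AA). Its brain ratio was 0.03 (-0.86 to 0.93) and its WAT ratio 5.43 (4.95 to 5.97). Unlike Y4-3p-a, the Y5-like 3′ start was mainly a shorter RNA. Its commonest length was 22 nt, with 57.4% of its reads of 18 to 30 nt, and 27 nt formed a smaller peak with 8.60%.

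The tRNA-Lys start was among the most abundant in active WAT. It had 45 reads (HB), 46 (AB), 5500 (HA) and 864 (AA). The brain libraries did not differ beyond counting error, with a log2 ratio of -0.31 (-0.94 to 0.31), and HA was higher than AA by 2.66 (2.55 to 2.76). Of the reads that began within 3 nt of it, 97.2% began exactly at this start. In WAT 28 and 29 nt were its commonest lengths, with 35.4% and 43.3% of its reads in HA and 19.9% and 27.3% in AA. AA also had shorter tags, with 9.90% at 22 nt, 11.6% at 23 nt and 9.28% at 24 nt. In brain the same start gave mainly short tags, and 18 nt held 39.2% of its 18 to 30 nt reads in both HB and AB, whereas 28 nt held 4.80% and 13.8%. The brain shares rest on few reads, 147 (HB) and 91 (AB) at 18 nt.

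Other tRNA-like starts had few reads in brain. The tRNA-Gly start, named after its values had been seen, had 17 reads (HB), 1 (AB), 2350 (HA) and 76 (AA), and its WAT log2 ratio was 4.94 (4.61 to 5.29). Its ratio in brain rests on 1 read in AB and was 3.81 (1.13 to 9.19). The tRNA-Glu start, also named after its values had been seen, had 4 reads (HB), 0 (AB), 1220 (HA) and 41 (AA). A start that resembles the initiator methionine tRNA was among the 4 lowest in WAT, with 45 reads (HA) and 73 (AA). Its log2 ratio was -0.71 (-1.28 to -0.16), so the tRNA-like starts did not all go one way there. It had 2 reads (HB) and 1 (AB).

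Among the most abundant starts of HA were 28S-like ones, and they formed ladders of neighbouring starts. 28S-d1 had 443 reads (HB), 110 (AB), 6986 (HA) and 620 (AA), and was higher in the hibernating library of both tissues, with log2 ratios of 1.73 in brain and 3.48 in WAT. 28S-f1 had 299, 147, 5833 and 327 reads in the same order, with ratios of 0.74 and 4.14. 28S-c1 had 455, 121, 5672 and 483 reads, with ratios of 1.63 and 3.54, and 18S-b, chosen after its values had been seen, had 217, 57, 2577 and 170 reads, with ratios of 1.65 and 3.91. The neighbours 28S-d2, 28S-d3 and 28S-f2 lay between 1.27 and 1.41 in brain and between 3.43 and 3.80 in WAT. The share of reads that began exactly at the start, among those within 3 nt, was 30.98% for 28S-d1 and 30.8% for 28S-f1. Such low shares were usual, since of the 552 starts with 100 or more reads 356 were under 40% and 103 at 80% or more. Over the 27 rRNA-like groups, the commonest start held 9.63 to 64.3% of the reads of its group, with a median of 17.9%. The highest was the group of 28S-a, a start with 577 reads (HB), 153 (AB), 1868 (HA) and 318 (AA), of whose neighbouring reads 89.1% began exactly there.

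28S-e was the rRNA-like exception in brain. It had 113 reads (HB), 163 (AB), 4140 (HA) and 71 (AA). Its log2 ratio was -0.81 (-1.17 to -0.45) in brain and 5.85 (5.51 to 6.21) in WAT. At the other end, 18S-a1 had 121 reads (HB), 7 (AB), 511 (HA) and 29 (AA), and its brain ratio of 3.83 (2.74 to 5.18) was the highest among starts with 100 or more reads. The next 3 in brain resembled 28S rRNA. 28S-c2 had 193 reads (HB) and 14 (AB), 28S-g1 had 189 and 14, and 28S-h had 107 and 8, with ratios of 3.46 to 3.50. A start that was not named was among the 4 lowest in brain, with 16 reads (HB), 93 (AB), 0 (HA) and 16 (AA) and a brain ratio of -2.82 (-3.69 to -2.05). Another without a name was among the 4 lowest in WAT, with 60 reads (HA) and 61 (AA), which did not differ beyond counting error.

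**Figure D4:**
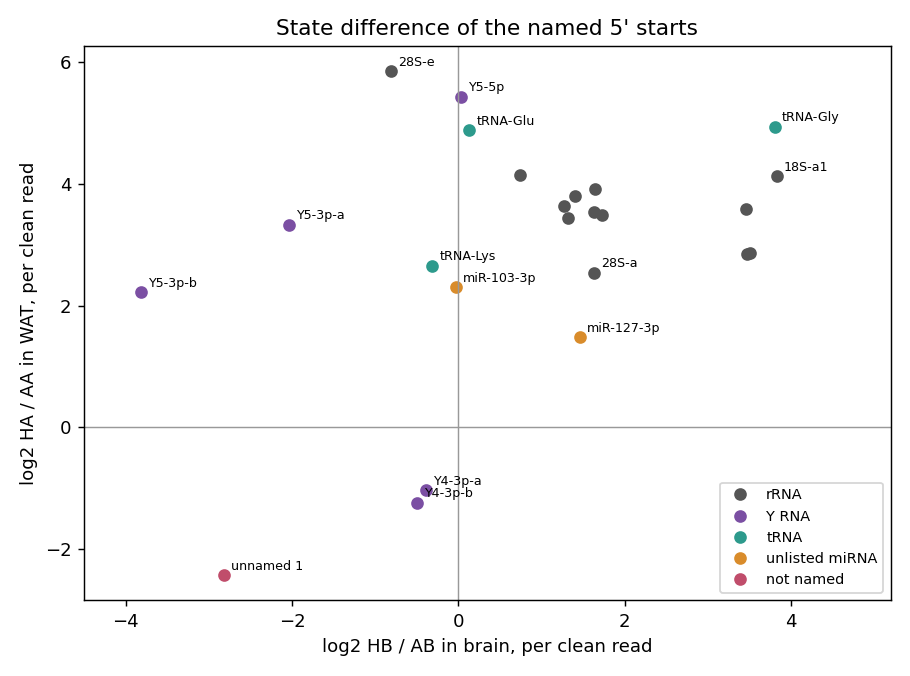
Log2 ratio of hibernating to active per clean read in brain (x axis) and in WAT (y axis) for the named 5′ starts with a ratio in both tissues, 1 point per start and coloured by class. The rRNA-like starts lie in the upper right apart from 28S-e, the Y4-like starts in the lower left, and the Y5-like 3′ starts in the upper left.

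Some long tags began like miRNAs that the study's list does not hold. The start of miR-127-3p, a miRNA of an imprinted gene cluster, had 539 reads (HB), 161 (AB), 31 (HA) and 11 (AA), and was higher in HB than in AB by a log2 ratio of 1.46 (1.21 to 1.73). These long forms were 0.450% of the reads of that start, whose commonest length was 23 nt. After base 22, adenine and thymine made up 93.3% of the bases of its long tags, counted by reads, and 148 of their 742 reads held the whole commonest tag of 23 nt. The same share was 55.9% for the miR-103 start and 50.9% for the miR-128-3p start, which are described next. The start shared by miR-103 and miR-107, which are miRNAs encoded in pantothenate kinase genes, had 287 reads (HB), 241 (AB), 499 (HA) and 100 (AA). Its long forms were 0.159% of the reads of the start, and 28.4% of their reads ended in the bases CGAAC. The start of miR-128-3p, a neuronal miRNA, had 53 reads (HB) and 120 (AB), a log2 ratio of -1.46 (-1.95 to -0.98), and 3 and 2 reads in HA and AA.

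**Figure D5:**
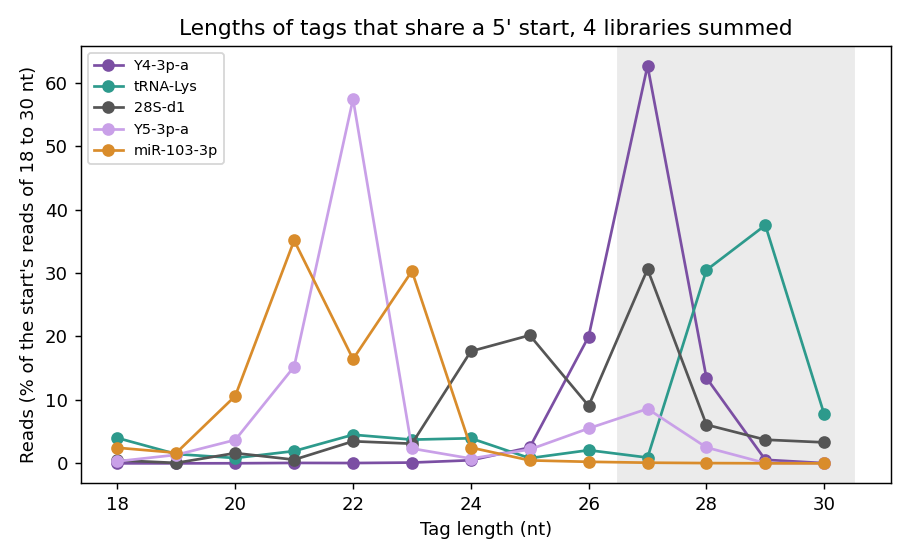
Reads of each length from 18 to 30 nt (x axis) as a percentage of the reads of 5 starts (y axis), with the 4 libraries summed; the grey band marks 27 to 30 nt. Y4-3p-a peaks at 27 nt and tRNA-Lys at 29 nt, whereas Y5-3p-a peaks at 22 nt and miR-103-3p at 21 nt.

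The tRNA cue did not depend on names. The D arm pattern was TNGNNNAG followed by 1 to 3 bases and GG, where N is any base, read on the tag's own strand. It was found in 7.75% of the long unlisted reads in HA (32955 reads), 6.95% in AA (2254 reads), 1.57% in HB (805 reads) and 1.52% in AB (332 reads). In the shorter unlisted tags it was found in 3.35%, 1.53%, 1.65% and 1.27% of the reads in the same order, and in the reverse complements of the long tags in 0.710%, 1.28%, 1.64% and 1.10%. By reads, the share in HB was thus no higher than in the reverse complements, in AB it was slightly higher, and in both WAT libraries it was several times higher. With each tag counted once it was above them in brain too, 2.63% against 0.847% in HB and 2.75% against 0.673% in AB. With the T at base 8, as in an intact tRNA read from its first base, the share was 5.58% (HA), 5.70% (AA), 0.554% (HB) and 0.827% (AB), and in reverse complements 0.00975 to 0.0184%. In the shorter unlisted tags it was 2.13%, 1.08%, 1.24% and 0.897% in the same order, above the long tags in brain and below them in WAT. Scaled by clean reads, the reads with the pattern had a log2 ratio of 3.86 (3.80 to 3.92) in WAT and 0.997 (0.811 to 1.19) in brain. The pattern was also found in rRNA-like groups, which held 17.8% of the reads with it (HB), 5.42% (AB), 2.76% (HA) and 2.17% (AA). The tRNA-like groups held 14.3% (HB), 17.8% (AB), 37.0% (HA) and 48.0% (AA) of the reads with it. The groups not named held 0.745%, 6.02%, 10.7% and 2.40% in the same order. Reads outside the 40 linked groups, left without a class, held 67.2% (HB), 70.8% (AB), 49.6% (HA) and 47.4% (AA).

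The cues for other classes were found in few reads. The T arm pattern GTTCNANNC, which marks the 3′ part of a tRNA, was found in 0.415% of the reads (HB), 0.363% (AB), 0.304% (HA) and 0.386% (AA), and in the reverse complements in 0.429%, 0.404%, 0.656% and 0.466%. In the shorter tags it was found in 0.170%, 0.111%, 0.318% and 0.124%, below the long tags except in HA. Tags that ended in CCA, the end of a mature tRNA, held 2.06% (HB), 2.39% (AB), 1.41% (HA) and 1.95% (AA), and 1.501%, 0.997%, 1.01% and 1.13% in the reverse complements. In the shorter tags they held 3.12%, 2.30%, 2.41% and 3.57%, so by reads the long tags were higher in AB alone. With each tag counted once, the long tags were above the shorter ones in every library, for example 2.95% against 2.08% in AB. The Y RNA motif GGTCCGA, within the first 12 bases, was found in 0.228% of the reads (HB), 0.409% (AB), 0.417% (HA) and 0.339% (AA), and in the reverse complements in at most 0.00926%. The rule set aside many tags with this motif, which held 108 reads (HB), 87 (AB), 280 (HA) and 236 (AA), against 117, 89, 1773 and 110 reads in the unlisted tags. The C box motif TGATGA of small nucleolar RNAs, within the first 9 bases, was found in 0.0367 to 0.0680% of the reads. Stretches of at least 14 bases of the study's 5S rRNA primers were found in 0.0115 to 0.0216%, and low-complexity tags made up 0.0360 to 0.168%. The 3′ end of 18S rRNA, read from the motif GGATCATTA chosen after the data had been seen, was found in 0.320% of the reads (HB), 0.464% (AB), 0.166% (HA) and 0.636% (AA). The motif TCGTATG of the 3′ sequencing adapter, also chosen after the data had been seen, was in 1.14% of the long unlisted reads of AB (248 reads) and in 0.0253% (HB), 0.0459% (HA) and 0.0864% (AA) of the others. It was in 18.2% of the AB reads that were set aside. Without the tags that hold it, the log2 ratio of the long tags was 0.97 in brain and 3.70 in WAT.

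A piRNA-like base pattern was less frequent by reads than in the comparison sets, and by unique tags in 3 of the 4 libraries it was less frequent than in the shorter tags. T at base 1 with A at base 10 was found in 3.80% of the long unlisted reads (HB), 3.79% (AB), 2.80% (HA) and 3.22% (AA). In the reverse complements it was found in 5.59%, 4.19%, 4.74% and 4.75%, and in the shorter unlisted tags, where miRNAs often begin with T, in 19.1%, 28.2%, 9.59% and 18.0%. With each tag counted once, the pattern was in 6.17% of the long tags (HB), 8.18% (AB), 4.33% (HA) and 5.06% (AA), and in 6.14%, 5.99%, 5.23% and 5.22% of their reverse complements, and in 7.17%, 7.87%, 5.29% and 6.80% of the shorter tags. AB was then above both sets, HB was close to the reverse complements, and the WAT libraries stayed below both. These bases alone do not identify piRNAs.

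HA also held starts that no other library had. Of its 2611 starts with 10 or more reads, 696 had 0 reads in HB, AB and AA, where a count of 0 allows up to 3 reads. This is 26.7% of them, and over the starts of all tags of 18 to 30 nt it was 3493 of 24293 (14.4%). These 696 starts held 22457 reads, 5.28% of the long unlisted reads of HA, and the D arm pattern was found in 27.8% of them. AA had 2 such starts of 372, with 21 reads, and HB and AB had 0 of 555 and 0 of 202. The 4 starts with the highest ratios in WAT had 2014, 1103, 750 and 645 reads in HA, at most 2 in AA and 0 in either brain library. The start with 2014 reads had 0 in AA, which gives a log2 ratio of 9.38 with AA set at 3 reads and an interval from 9.08 up. Their class and the organism they come from were not tested, and their sequences are not shown. HA also had the most long reads, and the part of this depth in the count was not tested.

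The tags set aside by the rule resembled the others in part. They held 4.75% of all reads of 27 to 30 nt (HB), 7.66% (AB), 3.90% (HA) and 5.804% (AA). Of their reads, 43.2% (HB), 16.1% (AB), 77.4% (HA) and 50.1% (AA) held bases of one of the 77 bat-specific sequences of the list. The D arm pattern was found in 12.4% of the reads set aside in HA, against 1.02% in HB, 0.831% in AB and 2.30% in AA. In HA most of these came from tags that hold either of a pair of bat-specific sequences, with 1716 reads in HA, 11 in AA, 2 in HB and 1 in AB. Another bat-specific sequence had the most reads among the tags set aside, 480 (HB), 129 (AB), 4950 (HA) and 536 (AA).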

How the data were processed

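Per the labels and the study's methods, small RNA was size-selected on a gel and sequenced on an Illumina (Solexa) platform, and adapters and low-quality reads were removed. The authors deposited, for each library, each clean tag with its length and its count, without normalization. The aligner and genome build were not needed here. Counts were summed per 5′ start (first 16 nt) and scaled by clean reads. A count of 0 was set at 3 reads, and no ratio was given where both libraries had 3 reads or fewer. No test between conditions was run, since each has 1 library. The named starts were the 6 with the most reads per library and, per tissue, the 4 highest and 4 lowest log2 ratios with 100 or more reads. A sequence was printed only for a recognised start whose linked group had 10 or more reads in every library. Starts of the rule without values in the text are not reported here. The members, cues and alternatives were chosen with earlier results of these data known. Python 3.11.15, SciPy 1.17.1, pandas 2.3.3 and edgeR 4.0.16 (for TMM scaling) were used.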

Additional observations from a re-analysis of the deposited data

Results flagged for a closer look

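The starts Y5-3p-a, Y5-3p-b and 28S-e went opposite ways in the tissues, with counting intervals that lay wholly on opposite sides of 0. For Y5-3p-a the log2 ratio of hibernating to active was -2.04 in brain and 3.33 in WAT, for Y5-3p-b it was -3.82 and 2.22, and for 28S-e it was -0.81 and 5.85. Scaled by the long unlisted reads in place of clean reads, the WAT ratios were -0.37 for Y5-3p-a, -1.48 for Y5-3p-b and 2.15 for 28S-e, so that for both Y5-like starts the WAT libraries then went the same way as the brain libraries. With 1 library per condition the difference between the tissues was not tested. Y5-3p-a and Y5-3p-b begin 1 base apart and are parts of the same RNA.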

How the results depend on the processing

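Shares, ratios and counts are given here for HB, AB, HA and AA, or for brain and WAT, in that order. The ratio of the total share kept its direction under every alternative run for it, and under the alternatives run for the share itself HA had the highest share and AB the lowest. The ratios of classes and single starts did not all do so: scaled by the long unlisted reads, 3 of 25 named starts in brain and 13 of 30 in WAT changed sign, and with TMM 1 did in each tissue. The share of clean reads became 2.63%, 1.70%, 9.71% and 2.20% when each unique tag was counted once, 0.326%, 0.166%, 3.18% and 0.209% with tags of 2 or more reads, 0.892%, 0.472%, 6.59% and 0.591% for 26 to 30 nt, 0.130%, 0.0566%, 1.77% and 0.111% for 28 to 30 nt, 0.912%, 0.493%, 5.70% and 0.624% over the reads of unlisted tags, and 0.443%, 0.236%, 3.83% and 0.301% with the listed tags kept in. Without the starts found in HA alone, the share of HA was 3.49% and the WAT log2 ratio 3.62. The log2 ratios in brain and WAT were 1.25 and 4.05 with TMM scaling over the listed miRNAs, 0.89 and 3.19 over unlisted reads, 0.63 and 2.14 with each unique tag counted once, 1.31 and 3.80 without the 5 most abundant starts, and 0.47 and 3.64 without the rRNA-like groups.

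The number of brain starts with a log2 ratio past 1, higher and lower, was 71 and 6 with a minimum of 100 reads, 278 and 74 when scaled by the long unlisted reads, and 202 and 8 when the whole interval lay beyond 1. In WAT the numbers were 468 and 2, 321 and 1096, and, for lower starts with the whole interval, 3. The first 14 or 18 nt as the start, and TMM scaling, left these counts within 1.5 times. The smaller counts under a higher minimum follow from fewer starts, and for the other settings the cause was not tested. The share with the D arm pattern was 2.63%, 2.75%, 5.19% and 5.56% with each unique tag counted once, 0.554%, 0.827%, 5.58% and 5.70% with the T at base 8, and 1.79%, 2.23%, 7.88% and 7.47% without the most abundant start of the library. The most abundant start held no reads with the pattern, so the share could only rise without it. Of the reads with the pattern, the commonest start among them held 6.21%, 13.9%, 16.6% and 37.9%. Without the starts found in HA alone the share with the pattern was 6.63% in HA. The alternatives without starts in HA alone, without rRNA-like groups or without tags that hold the adapter motif were chosen after seeing the data.

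The limits are those of 1 pooled library per condition. No difference between states or tissues has a replicate check, season and state cannot be told apart, and counts are relative to the clean reads of a library, so a large class lowers the share of the others. Tags stop at 30 nt, so fragments that end further on are not counted. Brain and WAT come from the same bats, so the tissues are not independent.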
